A study of Mus musculus with 12 samples.

Results

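The genes described here encode the machinery that moves cargo along microtubules: cytoplasmic dynein, its cofactor dynactin, dynein regulators and adaptors, and the kinesins with their light chains and cargo linkers. They were a list of 43 genes named by symbol, out of 55487 genes in the count files, and all 43 were found. By role they were 8 cytoplasmic dynein subunits, 8 dynactin subunits, 3 dynein regulators, 5 dynein adaptors, 8 genes of kinesin-1 and its linkers, 4 of kinesin-2, 6 of kinesin-3 and 1 of kinesin-4 (Kif21a). All 43 passed the filter on low counts in every comparison.

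The cells were primary fibroblasts grown from E13.5 mouse embryos, all carrying floxed alleles of the huntingtin gene (HTTfl/fl) and all infected with a lentivirus. HTT-deleted cells received a vector encoding Cre recombinase and GFP, and control cells received one encoding H2B-eGFP, so Cre itself differs between them. Cells were harvested 7 days after transduction, when ribosomes were purified and 1 part in 15 of the suspension was set aside. This gave 4 groups of 3 libraries: ribosome-associated RNA of HTT-deleted cells, ribosome-associated RNA of control cells, total RNA of HTT-deleted cells and total RNA of control cells. The labels count cultures as independent when they come from different primary cultures or separate passages, so the p-values speak only of the spread among such cultures or passages.

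Dynein is the main motor that moves cargo toward the minus ends of microtubules, near the cell centre, and it needs dynactin and an activating adaptor to travel far. Most transport kinesins walk the other way, toward the plus ends. Huntingtin, a large scaffold protein, binds the dynein intermediate chain and, through HAP1, dynactin and kinesin-1, and has been studied as a switch of transport direction in neurons. In fibroblasts the same motors position the nucleus, the Golgi and endosomes and build the mitotic spindle.

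Gene counts per library ran from 16789356 to 30571501, and the 43 genes took 0.501 to 0.532% of them in 5 of the 6 total RNA libraries, 0.458% in total HTT-deleted replicate 1, and 0.430 to 0.465% in the ribosome-associated libraries. Htt stood at 15.5, 10.6 and 10.7 CPM (counts scaled by library size) in total RNA of HTT-deleted cells, against 58.9, 45.8 and 64.6 CPM in controls, and at 12.8, 5.04 and 3.98 CPM in ribosome-associated RNA of HTT-deleted cells, against 22.6, 20.1 and 32.0 CPM in controls. Total HTT-deleted replicate 1 stood apart: it was rich in short transcripts, and test results for the 43 genes that rest on it are given with and without it. The sum of fibroblast markers was high in every library, with 28523 to 51931 CPM over 13 genes in total RNA of HTT-deleted cells and 41807 to 54846 CPM in controls. Of the 13, S100a4 was low, at 0.693 to 2.98 CPM over all libraries. Macrophage markers summed to 8068, 2096 and 3227 CPM in total RNA of HTT-deleted cells, against 3812, 911 and 2114 CPM in controls. All 18 had a fold change above 0, with a median of 1.05 on the log2 scale, not computed without HTT-deleted replicate 1. None of them was called, with or without the replicate number as a block. In ribosome-associated RNA they summed to 9528.1, 3200.6 and 4184.7 CPM in HTT-deleted cells, against 5546.6, 1359.4 and 3011.7 CPM in controls (18 of 18 above 0, median 0.74, 0 called, 9 with the replicate number as a block). Between ribosome-associated and total RNA of controls 15 of the 18 were above 0, with a median of 0.49 (0 called, 15 with the block). Neuron markers matter here because Kif5a, Kif5c and Kif1a are best known from neurons. They summed to 155 to 308 CPM in total RNA of HTT-deleted cells and 199 to 318 CPM in controls, with 5 of the 12 genes reaching 1 CPM in any library. Map2 led, at 71.5 to 210 CPM in total RNA of HTT-deleted cells and 137 to 214 CPM in controls. Stmn2 followed, at 33.8 to 122 CPM in HTT-deleted cells and 33.7 to 129 CPM in controls. Rbfox3, Snap25, Elavl3, Dcx and Nefl stood at 0.28 CPM or less in every library. The part of these markers in the results below was not tested, and in such bulk RNA fewer cells of a type and less RNA per cell cannot be told apart.

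The LC8 light chains Dynll1 and Dynll2 are among the shortest of these genes and illustrate how near-identical subunits are told apart in the counts. LC8 is a small dimeric hub at the base of the dynein tail. Their coding sequences are shown from the GRCm38 reference (GENCODE M21), with the stop codon, and capitals mark the bases at which the pair differs.
Dynll1: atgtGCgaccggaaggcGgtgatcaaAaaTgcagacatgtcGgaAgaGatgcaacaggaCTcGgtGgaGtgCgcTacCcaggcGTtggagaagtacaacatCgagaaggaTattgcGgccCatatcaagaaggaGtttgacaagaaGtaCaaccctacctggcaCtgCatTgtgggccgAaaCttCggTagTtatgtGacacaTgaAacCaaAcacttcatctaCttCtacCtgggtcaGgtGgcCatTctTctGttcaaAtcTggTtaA
Dynll2: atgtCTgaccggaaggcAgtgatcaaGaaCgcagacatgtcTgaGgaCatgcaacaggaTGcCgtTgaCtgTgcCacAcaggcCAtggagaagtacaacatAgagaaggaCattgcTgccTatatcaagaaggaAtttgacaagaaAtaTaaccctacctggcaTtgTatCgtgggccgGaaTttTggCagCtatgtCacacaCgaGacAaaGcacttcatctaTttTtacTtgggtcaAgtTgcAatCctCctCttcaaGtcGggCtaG
The Dynll1 coding sequence lies within chr5:115298696-115300644 and the Dynll2 sequence within chr11:87981433-87984003, both on the minus strand. The 2 sequences share 219 of 270 bases (81.1%), and 46 of the 51 differences fall at the last position of a codon. The longest stretch they share is 16 bases, so reads from the coding part of one gene carry bases that set it apart from the other.

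Levels are compared between genes as CPM per kb of exon in total RNA. Levels and shares are given with all libraries only. Dynein and dynactin subunits filled most of the top: the roadblock light chain Dynlrb1 led with 115 ± 34.2 in HTT-deleted cells and 94.5 ± 4.30 in controls (SD, n = 3 each), followed by Dynll2 with 68.7 ± 2.74 in HTT-deleted cells and 70.0 ± 3.59 in controls. The higher Dynlrb1 mean in HTT-deleted cells rested on replicate 1, at 156 CPM against 94.0 and 98.1 CPM in replicates 2 and 3. The kinesin-3 motor Kif1c came next in controls, with 47.5 ± 6.96 CPM per kb in HTT-deleted cells and 55.1 ± 2.86 in controls. At the bottom stood the adaptor Bicd1, at 0.0702 ± 0.0169 CPM per kb in HTT-deleted cells and 0.0624 ± 0.0210 in controls. In the order of control levels, 18 of the 42 neighbouring pairs differed by more than the larger of their SDs and 24 did not. Dync1h1, Dynlt3, Actr1b and Kif5b, from 38.1 to 36.8 CPM per kb in controls, were among those that could not be ordered.

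Several families were dominated by 1 paralog. Kif5b, the widely expressed kinesin-1 heavy chain, made up 92.4 ± 3.13% of the 3 heavy chains per kb in total RNA of HTT-deleted cells and 91.4 ± 1.53% in controls (SD, n = 3 each). Kif5c made up 5.15 ± 2.38% in HTT-deleted cells and 6.16 ± 1.62% in controls, and Kif5a 2.41 ± 1.04% in HTT-deleted cells and 2.43 ± 0.307% in controls. Among the KIF1 kinesins, Kif1c held 74.2 ± 4.29% in HTT-deleted cells and 73.2 ± 2.81% in controls. Of the light chains that link kinesin-1 to cargo, Klc1 held 65.9 ± 1.02% in HTT-deleted cells and 66.0 ± 2.84% in controls. Bicd2 held over 99% of the BICD adaptors, which join dynein and dynactin to Rab6 vesicles and to the nuclear envelope. Other families were mixed. The mitochondrial adaptors Trak1 and Trak2 stood at 32.9 ± 0.789% and 67.1 ± 0.789% in HTT-deleted cells, against 33.1 ± 2.06% and 66.9 ± 2.06% in controls. The Arp1 subunits of the dynactin filament, Actr1a and Actr1b, stood at 45.5 ± 1.92% and 54.5 ± 1.92% in HTT-deleted cells, against 43.6 ± 1.37% and 56.4 ± 1.37% in controls. Every difference in share between HTT-deleted and control cells named in this paragraph was smaller than the larger SD, except for the Arp1 pair, where it was just above it. Lengths are unions of all annotated exons, never shorter than the longest transcript, so per kb of the longest transcript no level in controls could be lower. Those of Dctn4 and Bicd1 are raised most, and the order changes. By that length Kif1c ranked 5th in controls, Dctn2 4th, Dynll1 8th and Dync1h1 15th, against 3rd, 7th, 14th and 8th per kb of exon. Trak1 and Trak2 were then near equal in controls, at 12.7 and 12.6 CPM per kb, so their split depends on the length used.

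**Figure D1:**
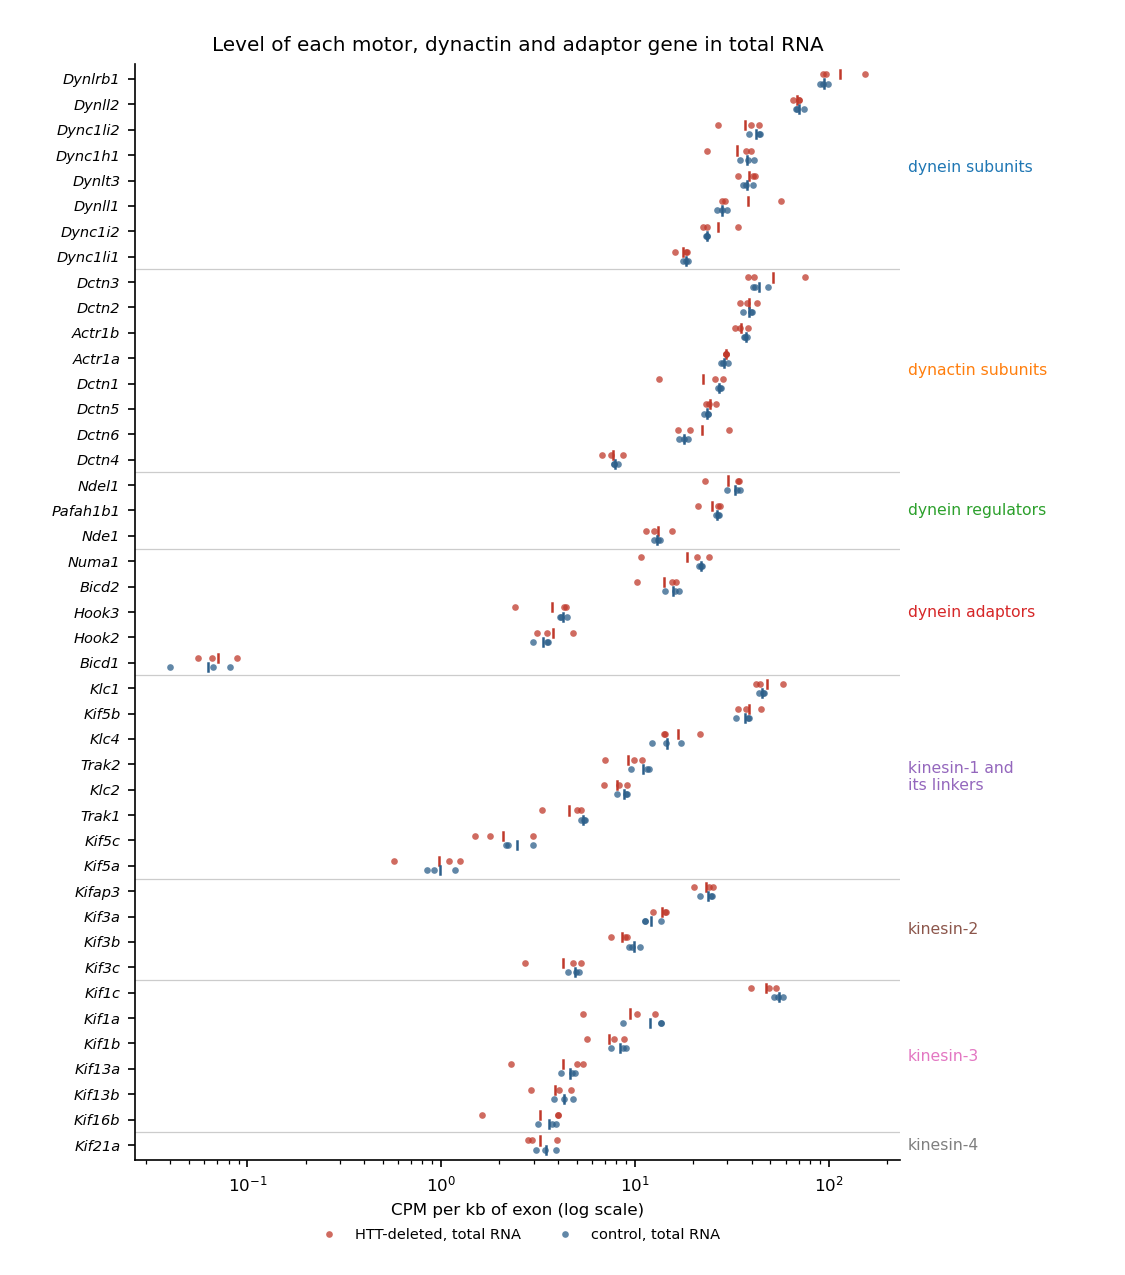
Levels of the 43 genes in total RNA, in CPM per kb of exon on a log scale, grouped by role. Points are single libraries (HTT-deleted above control in each row) and bars are group means. Dynlrb1 is highest at 115 in HTT-deleted cells and 94.5 in controls, Bicd1 lowest, and 1 HTT-deleted library, replicate 1, stands away from the other libraries for many genes.

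The first comparison asked whether loss of huntingtin changes the level of its transport partners in total RNA. None of the 43 genes passed edgeR's quasi-likelihood test at a Benjamini-Hochberg adjusted p under 0.05, and neither did any of the 14759 genes tested (0.00%). At an unadjusted p under 0.05 there were 0 of the 43, and 44 of all genes (0.298%). DESeq2 and limma voom also called 0 of the 43, and 3 and 0 of all genes. The median log2 fold change of the 43 genes was -0.05, against 0.01 over all genes, and the values ran from -0.32 (Kif1a) to 0.48 (Dynll1). Standard errors had a median of 0.19 and ran from 0.12 to 0.38, and far larger changes also went uncalled after adjustment over all genes. The deleted gene itself, Htt, had a log2 fold change of -2.16 (SE 0.24) with an adjusted p of 0.812 (edgeR, Benjamini-Hochberg), so the absence of calls does not show that levels were unchanged.

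The 5 genes with the smallest p were Dynll1, Kif3a, Kif3b, Dynlrb1 and Dctn6, with adjusted p of 0.978 each (edgeR, Benjamini-Hochberg). Dynll1 stood at 221, 110 and 114 CPM in HTT-deleted cells, against 104, 110 and 116 CPM in controls, a log2 fold change of 0.48 (SE 0.31). Only HTT-deleted replicate 1 lay outside the control range. Dynlrb1 had the same layout, with 156, 94.0 and 98.1 CPM in HTT-deleted cells, against 94.4, 100 and 91.5 CPM in controls (log2 fold change 0.32, SE 0.24). Dctn6, a subunit of the dynactin pointed end, had 87.3, 54.7 and 47.7 CPM in HTT-deleted cells, against 51.3, 53.6 and 48.4 CPM in controls (log2 fold change 0.35, SE 0.26). In all 3 genes the groups overlapped. Without total HTT-deleted replicate 1 the log2 fold changes were 0.04 for Dynll1, 0.02 for Dynlrb1 and 0.02 for Dctn6.

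The kinesin-2 motors, which carry cargo into cilia, gave the other 2. Kif3b stood at 42.3, 51.4 and 50.4 CPM in HTT-deleted cells, against 59.7, 52.6 and 54.4 CPM in controls, a log2 fold change of -0.18 (SE 0.13). It was the 1 gene of the 43 whose groups did not overlap, where 4.21% of all genes tested had groups that did not overlap (1.61% higher, 2.60% lower). Kif3a, its partner in the heterodimer, stood at 52.0, 51.1 and 44.5 CPM in HTT-deleted cells, against 40.2, 49.0 and 40.6 CPM in controls, a log2 fold change of 0.22 (SE 0.15), and the groups overlapped. Without total HTT-deleted replicate 1 these values were -0.12 for Kif3b and 0.16 for Kif3a.

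Among the other members the sign of the change went with transcript length. All 6 kinesin-3 genes had a log2 fold change below 0, with a median of -0.15, and without total HTT-deleted replicate 1 that median was 0.01. The dynein heavy chain Dync1h1 stood at 368, 583 and 621 CPM in HTT-deleted cells, against 643, 597 and 548 CPM in controls, with a log2 fold change of -0.16 (SE 0.22), and of 0.02 (SE 0.10) without that replicate. Dctn1, which encodes the p150Glued arm that holds dynactin on microtubules, stood at 86.5, 169 and 184 CPM in HTT-deleted cells, against 181, 178 and 174 CPM in controls, a log2 fold change of -0.26 (SE 0.26), and of 0.00 without that replicate. Across the 43 genes the Spearman correlation of this fold change with coding length was -0.617 (-0.500 over 13094 protein-coding genes), and without total HTT-deleted replicate 1 it was 0.085 (0.113 over 13371 genes). These are descriptions across genes, which share the same libraries. With that library left out, 0 of the 43 and 0.00% of 15286 genes were called, with a median standard error of 0.09.

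In ribosome-associated RNA the question is whether the transcripts held on ribosomes changed. Here too 0 of the 43 genes were called, as were 0.00% of 14588 genes. At an unadjusted p under 0.05 there were 0 of the 43 and 110 genes in all (0.754%). DESeq2 and limma voom called 0 of the 43, and 1 and 0 of all genes. The median log2 fold change was 0.03, against -0.00 over all genes, and the values ran from -0.13 (Dynll2) to 0.41 (Bicd1). The median standard error was 0.11, smaller than in total RNA. Htt was not called here either, at -1.78 (SE 0.47, adjusted p = 1.00, edgeR). With the replicate number as a block, 247 genes were called (1.69%, with 1.46% higher and 0.233% lower) but again 0 of the 43, and the lowest adjusted p among them was 0.280 (Kif13a).

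The smallest p-values in ribosome-associated RNA belonged to 3 kinesin-3 motors of endosomes and membrane traffic, to Actr1b and to Kif3c, with an adjusted p of 1.00 each (edgeR, Benjamini-Hochberg). Kif16b, which binds early endosomes, stood at 36.0, 31.2 and 33.1 CPM in HTT-deleted cells, against 23.9, 29.1 and 32.3 CPM in controls, a log2 fold change of 0.24 (SE 0.13). Kif13b stood at 30.4, 25.1 and 22.4 CPM in HTT-deleted cells, against 20.1, 24.6 and 21.3 CPM in controls (0.24, SE 0.15). Kif13a stood at 25.4, 31.4 and 26.6 CPM in HTT-deleted cells, against 17.4, 27.8 and 24.2 CPM in controls (0.27, SE 0.18). In each of the 3 the groups overlapped, and the lowest value was that of control replicate 1. Without ribosome-associated control replicate 1 the log2 fold changes were 0.13 for Kif16b, 0.19 for Kif13b and 0.11 for Kif13a.

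Actr1b stood at 157, 159 and 163 CPM in HTT-deleted cells, against 188, 171 and 163 CPM in controls, a log2 fold change of -0.12 (SE 0.08). Kif3c stood at 34.4, 37.9 and 38.5 CPM in HTT-deleted cells, against 29.0, 34.6 and 36.3 CPM in controls, a log2 fold change of 0.15 (SE 0.11), but its exons share 2617 bases with the antisense gene 1110002L01Rik and its counts are uncertain for that reason. Without ribosome-associated control replicate 1 the log2 fold changes were -0.06 for Actr1b and 0.07 for Kif3c. Groups that did not overlap were found for 3 of the 43 genes, Kif5a (higher) and Actr1b and Ndel1 (lower), where 5.44% of all genes had such groups (2.63% higher, 2.82% lower). For Actr1b the gap was within 1 CPM at the nearest values. For Kif5a, at a low level in every library, the nearest values were 2.11 CPM in HTT-deleted cells and 2.06 CPM in controls. Across the 43 genes the Spearman correlation of this fold change with coding length was 0.497 (0.083 over 13136 protein-coding genes), and -0.033 (-0.186 over 13356 genes) without ribosome-associated control replicate 1.

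**Figure D2:**
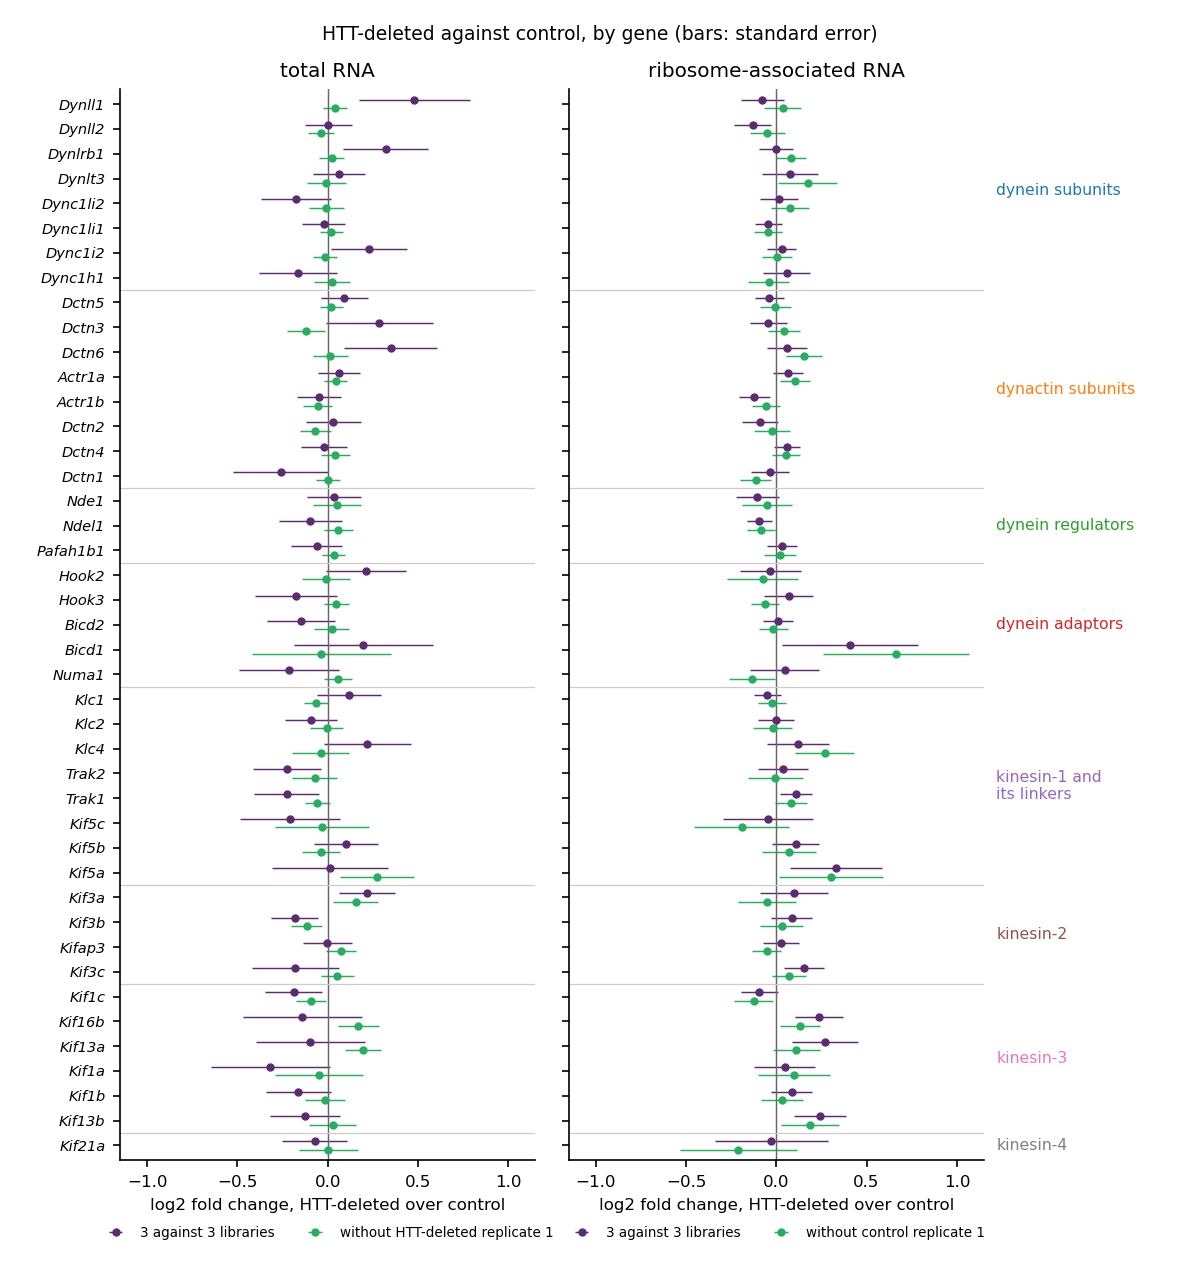
Log2 fold change of HTT-deleted over control cells for the 43 genes in total RNA (left) and ribosome-associated RNA (right), with standard errors, from 3 against 3 libraries and with 1 library left out. In total RNA the wide bars and the order by length (short genes at the top of each role) are seen with all libraries, where values run from -0.32 to 0.48. Without HTT-deleted replicate 1 the short light chain Dynll1 lies at 0.04.

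The share of each transcript on ribosomes, as ribosome-associated over total RNA, was then compared between HTT-deleted and control cells as an interaction over all 12 libraries. None of the 43 genes was called, and 0.00% of 15574 genes, with 0 of the 43 and 85 genes in all (0.546%) at an unadjusted p under 0.05 and 0 of the 43 with DESeq2 or limma voom. The smallest p-values were those of Kif3b, with a log2 ratio change of 0.29 (SE 0.17), Trak1 with 0.35 (SE 0.22), Dynll1 with -0.52 (SE 0.33), Kif13b with 0.39 (SE 0.26) and Kif3c with 0.35 (SE 0.29). Without total HTT-deleted replicate 1 they were 0.22 for Kif3b, 0.19 for Trak1, -0.10 for Dynll1, 0.24 for Kif13b and 0.12 for Kif3c. The median of the 43 was 0.10 (0.01 over all genes), and 0.04 without that library. By replicate number the median of the 43 ratio changes was 0.25, 0.02 and -0.04 for numbers 1, 2 and 3, so the shift lay in the first.

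The comparison of the 2 fractions within control cells asked which motor transcripts are held on ribosomes in larger or smaller proportion than their share of total RNA. Of the 43 genes 13 passed the test, 3 higher and 10 lower in ribosome-associated RNA (30.2%), near the 25.0% of all 14990 genes called (10.0% higher, 15.0% lower). The 3 that rose were dynein light chains. Those that fell were the dynein heavy chain, Dctn1, 2 adaptors and 6 kinesins or kinesin-1 linkers. The median log2 fold change was -0.17, against 0.02 over all genes. At an unadjusted p under 0.05 there were 24 of the 43 (38.2% of all genes), and 26 had fractions that did not overlap, 12 higher and 14 lower (44.1% of all genes, 20.6% higher and 23.5% lower). With the replicate number as a block, 27 genes were called, 8 higher and 19 lower, beside 50.2% of all genes (24.3% higher, 25.9% lower).

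Dynein split by subunit size. Dync1h1, the heavy chain that holds the motor domain, stood at 213, 298 and 243 CPM in ribosome-associated RNA, against 643, 597 and 548 CPM in total RNA, a log2 fold change of -1.26 (SE 0.14, adjusted p = 0.00239, edgeR with Benjamini-Hochberg). Every ribosome-associated library lay below every total library. On the scale per kb of exon it ranked 21st of the 43 in ribosome-associated RNA of controls, against 8th in total RNA. Per kb of the longest transcript it ranked 15th in total RNA, and that rank was not computed for ribosome-associated RNA.

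The light chains went the other way. Dynlrb1 stood at 164, 136 and 145 CPM in ribosome-associated RNA, against 94.4, 100 and 91.5 CPM in total RNA, a log2 fold change of 0.63 (SE 0.10, adjusted p = 0.0064, edgeR with Benjamini-Hochberg). Dynlt3, a Tctex-type light chain, stood at 170, 151 and 131 CPM in ribosome-associated RNA, against 96.0, 104 and 93.6 CPM in total RNA (0.61, SE 0.11, adjusted p = 0.0105, same test). Dynll1, the first of the pair of sequences above, stood at 183, 146 and 153 CPM in ribosome-associated RNA, against 104, 110 and 116 CPM in total RNA (0.55, SE 0.11, adjusted p = 0.014, same test). In these 3 genes the fractions did not overlap. Its paralog Dynll2 stood at 259, 238 and 206 CPM in ribosome-associated RNA, against 187, 203 and 185 CPM in total RNA, with a log2 fold change of 0.28 (SE 0.10) that did not pass the test (adjusted p = 0.0909, edgeR). It passed with the block (adjusted p = 0.0076). The difference between the paralogs was not tested. The intermediate chain Dync1i2, at 0.01 (SE 0.07), and the light intermediate chains Dync1li1, at 0.10 (SE 0.07), and Dync1li2, at -0.23 (SE 0.10), lay between and were not called, though Dync1li2 was called lower with the block.

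**Figure D3:**
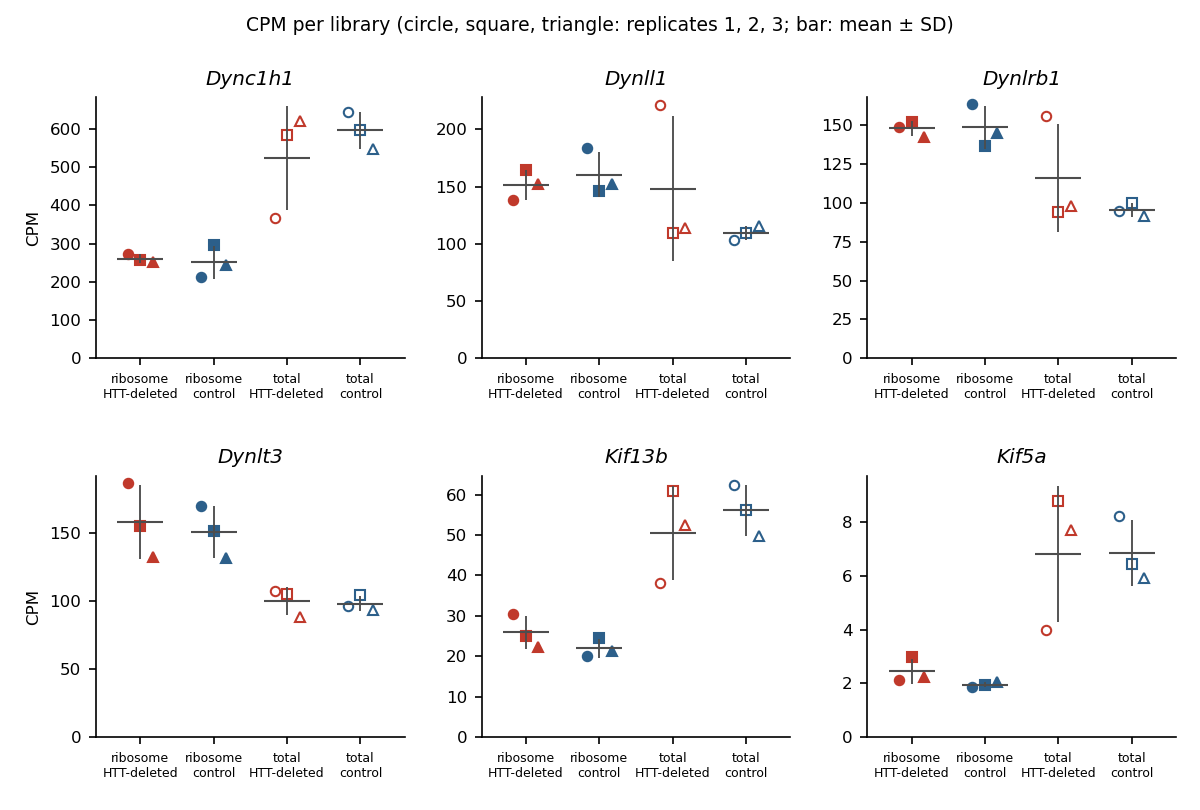
CPM of 6 genes in each library (circle, square and triangle for replicates 1, 2 and 3, with mean and SD), with ribosome-associated RNA left of total RNA and HTT-deleted left of control cells; each vertical axis starts at 0. The heavy chain Dync1h1 and the kinesins Kif13b and Kif5a are lower, and the light chains Dynll1, Dynlrb1 and Dynlt3 higher, in ribosome-associated than in total RNA of controls. Total HTT-deleted replicate 1 (open red circle) has 221 CPM of Dynll1 and 368 CPM of Dync1h1.

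Of the dynactin subunits 0 rose and 1 fell, with 7 of 8 fold changes above 0. Dctn1 stood at 113, 133 and 140 CPM in ribosome-associated RNA, against 181, 178 and 174 CPM in total RNA, a log2 fold change of -0.47 (SE 0.10, adjusted p = 0.0143, edgeR with Benjamini-Hochberg). Its groups did not overlap. The other 7 lay between 0.11 (Dctn4) and 0.36 (Dctn3, a shoulder subunit) and were not called. With the block, Dctn3, Dctn6 and Actr1a were called higher. None of the 3 regulators was called: Ndel1 stood at 0.22 (SE 0.08), Nde1 at 0.12 (SE 0.11) and Pafah1b1, the LIS1 protein that readies dynein for motion, at -0.02 (SE 0.07). With the block Ndel1 was called higher. Of the 5 adaptors, all with a fold change below 0, 2 fell. Hook2 stood at 8.06, 7.48 and 10.4 CPM in ribosome-associated RNA, against 14.2, 11.9 and 14.0 CPM in total RNA (-0.63, SE 0.17, adjusted p = 0.0328, edgeR). Numa1, which anchors dynein at the spindle poles and cell cortex, stood at 78.4, 111 and 134 CPM in ribosome-associated RNA, against 170, 174 and 176 CPM in total RNA (-0.69, SE 0.18, adjusted p = 0.034, edgeR). Both sets of groups were apart. Replicate 1 gave the lowest ribosome-associated Numa1 value. With the block Hook3 was called lower as well.

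All 19 kinesins and kinesin-1 linkers had a fold change below 0. In the kinesin-1 group of 8, 3 fell. Kif5a, the neuronal heavy chain, stood at 1.86, 1.93 and 2.06 CPM in ribosome-associated RNA, against 8.22, 6.43 and 5.91 CPM in total RNA, a log2 fold change of -1.82 (SE 0.22, adjusted p = 0.00301, edgeR with Benjamini-Hochberg). That was the lowest value of the 43 genes, at a low level in both fractions. The dominant heavy chain Kif5b stood at 242, 286 and 243 CPM in ribosome-associated RNA, against 310, 306 and 264 CPM in total RNA (-0.20, SE 0.11), and Kif5c at -0.43 (SE 0.20), neither of them called. With the block both were called lower, as were Klc1 and Trak2, among 7 of the 8 genes of this group. Kif5a made up 0.818 ± 0.0855% of the heavy chains per kb in ribosome-associated RNA and 2.43 ± 0.307% in total RNA of controls (SD, n = 3 each). Klc2 stood at 25.0, 25.2 and 27.1 CPM in ribosome-associated RNA, against 37.8, 33.5 and 37.4 CPM in total RNA (-0.50, SE 0.09, adjusted p = 0.00995, edgeR). Trak1 stood at 50.4, 54.6 and 53.7 CPM in ribosome-associated RNA, against 69.6, 68.9 and 65.9 CPM in total RNA (-0.37, SE 0.07, adjusted p = 0.0127, edgeR). Groups of these 3 did not overlap.

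Of the 6 kinesin-3 motors 3 fell. Kif13b stood at 20.1, 24.6 and 21.3 CPM in ribosome-associated RNA, against 62.4, 56.2 and 49.7 CPM in total RNA, a log2 fold change of -1.36 (SE 0.12), and its adjusted p of 0.00141 was the smallest of the 43 (edgeR, Benjamini-Hochberg). Kif13a stood at 17.4, 27.8 and 24.2 CPM in ribosome-associated RNA, against 38.3, 39.7 and 33.8 CPM in total RNA (-0.70, SE 0.17, adjusted p = 0.0246, edgeR). Kif1b, which carries mitochondria and vesicle precursors, stood at 90.1, 110 and 95.0 CPM in ribosome-associated RNA, against 158, 153 and 133 CPM in total RNA (-0.60, SE 0.11, adjusted p = 0.00964, edgeR). In each the fractions did not overlap. Kif1a, at -0.73 (SE 0.23), and Kif21a, a kinesin-4 that slows microtubule growth, at -0.75 (SE 0.24), had wider errors and did not pass, though both passed with the block and with DESeq2. Kif1c was not called in the main fit but was called lower with the block. The 4 kinesin-2 genes lay between -0.17 and -0.08 and were called in neither fit.

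Of the 13 calls, those of Kif13b, Dync1h1, Kif5a, Dynlrb1, Kif1b and Dynlt3 held in every alternative tried. The calls of Dctn1, Dynll1, Hook2, Kif13a, Klc2, Numa1 and Trak1 were each lost in at least 1, all 7 of them without total control replicate 1, which left 2 higher and 4 lower.

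**Figure D4:**
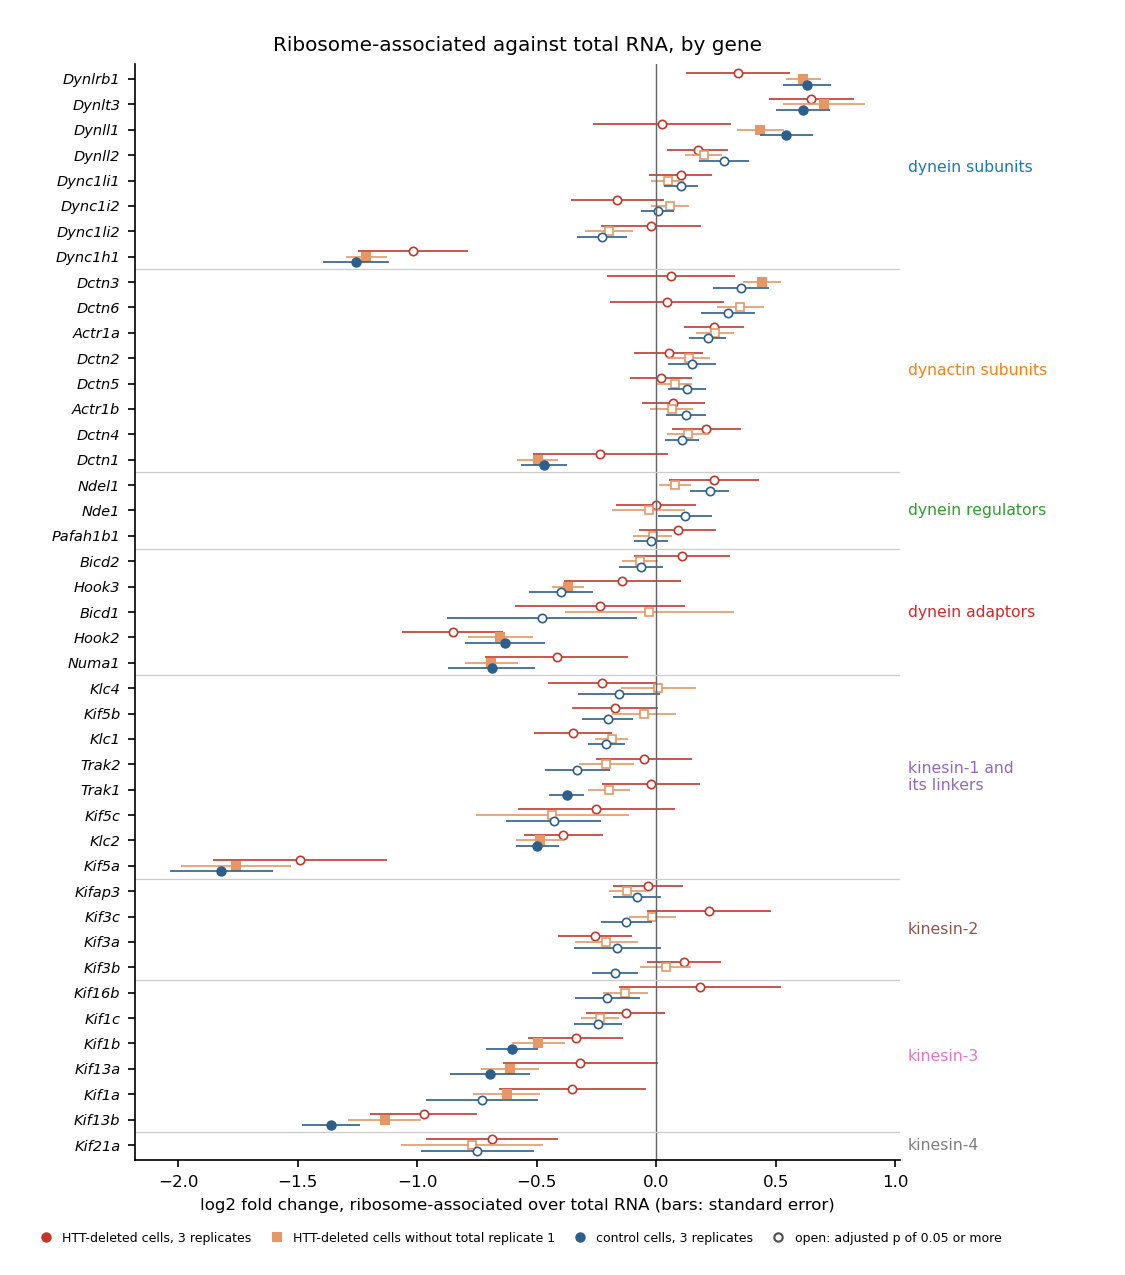
Log2 fold change of ribosome-associated over total RNA with standard errors for the 43 genes, grouped by role, in HTT-deleted cells (red), in HTT-deleted cells without total replicate 1 (orange) and in control cells (blue). Filled symbols passed an adjusted p of 0.05. Dynein light chains lie right of 0 and Dync1h1, Kif13b and Kif5a below -1 in controls, and the orange values lie near the blue ones for most genes.

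Across the 43 genes the fold change went with coding length, with exceptions such as Kif5a. The 4 light chains have coding regions of 267 to 348 bases, and Dync1h1 has 13932 bases, the longest of the 43. Across the 43 genes the log2 fold change in controls had a Spearman correlation of -0.887 with coding length (n = 43 genes), and over 13246 protein-coding genes it was -0.649. In 10 equal bins of all protein-coding genes by coding length, the shortest (median 408 bases) had a median log2 fold change of 0.45 and the longest (median 4740 bases) one of -0.54. Dynlrb1, at 0.63, and Dync1h1, at -1.26, lay in the direction of genes of their length but beyond the quartiles of their bins, which were 0.24 and 0.58 in the shortest and -0.76 and -0.33 in the longest. Kif5a, with 3081 coding bases, lay further down at -1.82 than the quartiles of the bin with a similar median length (2931 bases), which were -0.48 and -0.09. Genes are not independent replicates, the correlation is a description, and how length came to move with the fraction was not tested.

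**Figure D5:**
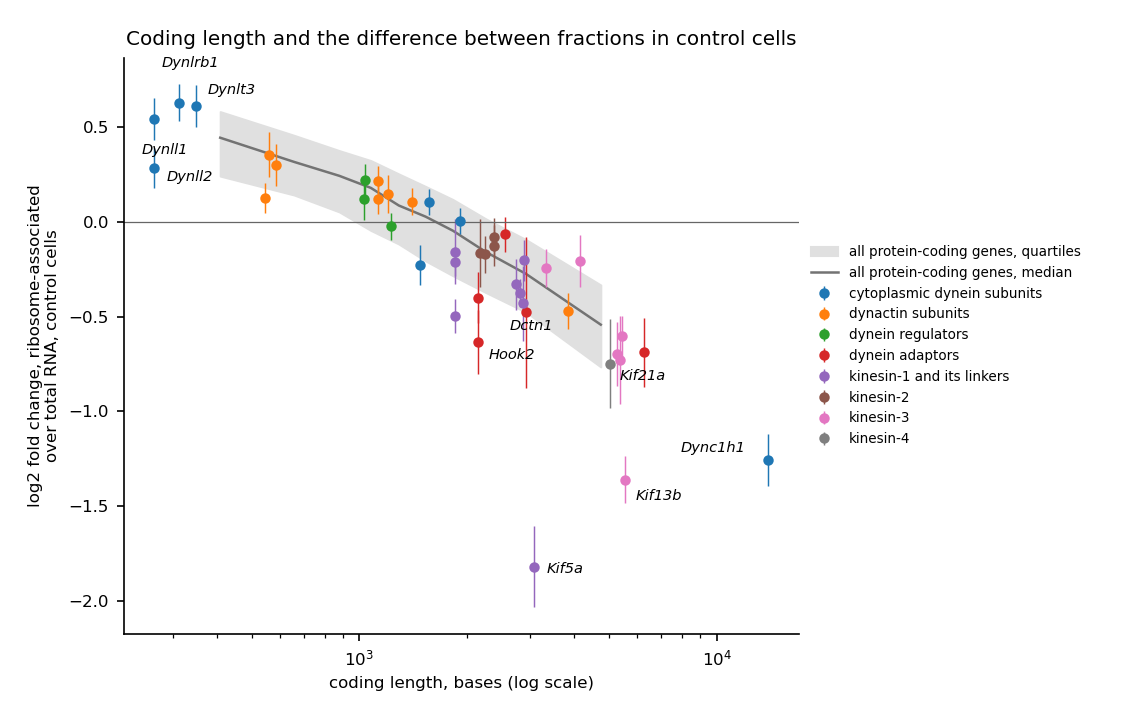
Log2 fold change of ribosome-associated over total RNA in control cells (vertical axis, with standard errors) against coding length in bases (log scale) for the 43 genes, coloured by role. The grey line and band are the median and quartiles of all protein-coding genes in 10 bins of coding length, from 0.45 in the shortest to -0.54 in the longest. Kif5a lies below the band, and Kif13b and Dync1h1, to the right of where the band ends, lie below its lower edge there (-0.76).

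In HTT-deleted cells the same comparison called 0 of the 43 genes with all libraries, against 131 of 14627 genes (0.896%, all lower). At an unadjusted p under 0.05 there were 6 of the 43, beside 12.2% of all genes, and DESeq2 called 5 (866 of 14627 genes in all) and limma voom 0 (138 genes in all). With the replicate block 0 of the 43 were called (0.663% of all genes, all lower). The directions were those of controls for 36 of the 43 genes and for all 13 called there, though 11 of the 13 were smaller. Dync1h1 stood at 274, 257 and 251 CPM in ribosome-associated RNA, against 368, 583 and 621 CPM in total RNA, a log2 fold change of -1.02 (SE 0.23, adjusted p = 0.111, edgeR with Benjamini-Hochberg). Kif13b stood at 30.4, 25.1 and 22.4 CPM in ribosome-associated RNA, against 38.0, 61.0 and 52.6 CPM in total RNA (-0.97, SE 0.22, adjusted p = 0.117, edgeR). In both the fractions did not overlap, and total replicate 1 was the nearest to the ribosome-associated libraries.

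The next in order of p were Kif5a, Hook2 and Dynlt3. Kif5a stood at 2.11, 2.98 and 2.25 CPM in ribosome-associated RNA, against 3.98, 8.79 and 7.71 CPM in total RNA (-1.49, SE 0.36). Hook2 stood at 8.67, 7.94 and 8.66 CPM in ribosome-associated RNA, against 19.0, 12.4 and 13.9 CPM in total RNA (-0.85, SE 0.21). Dynlt3 stood at 187, 155 and 132 CPM in ribosome-associated RNA, against 107, 105 and 88.2 CPM in total RNA (0.65, SE 0.18). Their groups were apart too, and 13 of the 43 genes had such groups, 6 higher and 7 lower, where 20.5% of all genes did (8.89% higher, 11.6% lower). The light chain Dynll1 stood at 138, 164 and 153 CPM in ribosome-associated RNA, against 221, 110 and 114 CPM in total RNA, with a log2 fold change of 0.03 (SE 0.29) and groups that overlapped through replicate 1.

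Leaving out 1 library other than total HTT-deleted replicate 1 called 0 of the 43 genes, and 0 or 1 of all genes. Without total HTT-deleted replicate 1 the comparison called 15 of the 43 genes, 4 higher and 11 lower (beside 19.9% of 15141 genes, 7.95% higher and 11.9% lower). Of these, 12 were also called in control cells, which is 92.3% of the control calls and 80.0% of these 15, and Trak1 was called in controls alone. The 3 others were Dctn3 (0.44, SE 0.08), Hook3 (-0.37, SE 0.07) and Kif1a (-0.62, SE 0.14), and the direction was the control one in 40 of the 43 genes. Dync1h1 then stood at -1.21 (SE 0.09), Kif13b at -1.14 (SE 0.15), Kif5a at -1.76 (SE 0.23) and Dynll1 at 0.44 (SE 0.10). The correlation with coding length was -0.664 with all libraries (-0.371 over 13110 genes) and -0.853 without that library (-0.615 over 13365 genes). The interaction above, which tests the difference between HTT-deleted and control cells directly, called 0 of the 43 with or without it.

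The authors' deposited table, whose comparison differs from the fits above, also lists all 43 genes. Of the 43 genes, 0 in the authors' deposited table reached a false discovery rate under 0.05 in total RNA, where 4.97% of its 16974 genes did, and 0 in ribosome-associated RNA, where 4.21% of its 16235 genes did. Log2 fold changes of the 43 in the authors' deposited table ran from -0.38 to 0.39 in total RNA and from -0.13 to 0.42 in ribosome-associated RNA, with Htt at -2.18 and -1.93 in those fractions.

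Other genes of the same machinery were counted in 5 lists that hold none of the 43. In HTT-deleted against control cells none of them was called, in total RNA, ribosome-associated RNA or the ratio. Between fractions in control cells, 5 rose and 8 fell of 31 other dynein, dynactin and adaptor genes, where over all genes 10.0% rose and 15.0% fell. Among these the kinesin-1 and dynein linker Mapk8ip3 fell by 1.71 on the log2 scale (SE 0.11), and the heavy chain of ciliary dynein, Dync2h1, by 0.95 (SE 0.22), while Capza2 and Capzb, which cap the dynactin filament, rose by 0.38 and 0.37 (SE 0.09 each). Of 20 other transport kinesins and cargo linkers, 1 rose and 5 fell, with Syne1, a giant nuclear envelope protein, at -1.32 (SE 0.21) and the lysosomal GTPase Arl8b at 0.41 (SE 0.09). Of 31 microtubule-associated, plus-end and tubulin-modifying genes 1 rose, Stmn1 at 0.57 (SE 0.09), and 12 fell, among them Map1b at -0.95 (SE 0.25) and the tubulin deacetylase Hdac6 at -0.93 (SE 0.16). Of 15 tubulins 2 rose, Tuba1b at 0.57 (SE 0.10) and Tubb6 at 0.49 (SE 0.15), and none fell, while of 15 mitotic kinesins none was called. In HTT-deleted cells the 1 call in these lists was Lrrc45, at -1.33 (SE 0.13, adjusted p = 0.0191, edgeR with Benjamini-Hochberg), which in controls stood at -1.38 (SE 0.10). Without total HTT-deleted replicate 1 there were 3 higher and 9 lower in the dynein list, 0 and 4 among the transport kinesins, 1 and 9 in the microtubule-associated list, 2 and 0 among the tubulins and none among the mitotic kinesins, beside 7.95% higher and 11.9% lower over all genes. With the replicate block in controls the dynein list had 12 higher and 10 lower, the transport kinesins 3 and 11, the microtubule-associated list 3 and 17, the tubulins 9 and 0 and the mitotic kinesins 0 and 4, beside 24.3% higher and 25.9% lower over all genes.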

How the data were processed

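The submitters' processing notes name FastQC, STAR 2.7.2b, HTSeq 0.11.1, edgeR and the build GRCm38 (mm10). Per the labels, the library kit keeps strand and took 250 ng of RNA with a quality number above 9. The authors deposited raw counts per Ensembl gene for each library and a table of log2 fold changes, a likelihood ratio score and p-values, named for RUVSeq. Which annotation and strand option HTSeq ran with is not stated in those notes, so counts of genes with antisense partners are uncertain. Symbols and lengths came from GENCODE M21, and 5 entries that name no gene were left out, among them reads with no feature (2.64 to 3.30% of gene, no-feature and ambiguous counts in ribosome-associated and 6.94 to 7.73% in total RNA libraries).

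Counts were TMM-scaled, filtered with filterByExpr and tested with edgeR 4.0.16 (R 4.3.3) by the quasi-likelihood test over all genes, with Benjamini-Hochberg adjustment and a threshold of 0.05. Standard errors (SE) were computed as |log2 fold change| over the root of the F statistic. CPM use TMM over all 12 libraries. The fits were checked on simulated counts drawn independently for each library. Those held no outlying library, no pairing and no trend with length, so the check does not speak to these. Alternatives were other scalings and filters, DESeq2 1.42.0, limma 3.58.1 voom, a replicate block, 1 fit of all 12 libraries, and leaving out libraries. Members and lists were chosen with earlier results of these data known. By rule, values per library are given for the called genes (at most 10 in each direction). In comparisons without a call, the ratio apart, they are given for the 5 lowest in p. Other genes, some of them also with values per library, were named after their values were seen.

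The main tests do not use the replicate number. Since same-numbered libraries deviated together over all genes, the fit with the number as a block is given where it changes a call. Per the labels, total RNA is part of the suspension that ribosomes were purified from, though no label states that equal numbers mark 1 suspension. Same-numbered libraries deviated together, with correlations across genes of 0.227 to 0.576 between HTT-deleted and control total RNA, 0.525 to 0.703 in ribosome-associated RNA, and 0.501 to 0.737 between fractions in controls and 0.347 to 0.579 in HTT-deleted cells.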

Additional observations from a re-analysis of the deposited data

How the results depend on the processing

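Against HTT deletion, none of the 43 genes was called in total RNA, ribosome-associated RNA or the ratio under any alternative tried. Over all genes, total RNA gave 94 calls of 14938 with pairs 2 and 3 and the block, 3 with DESeq2 and 1 of 26644 without a filter. Ribosome-associated RNA gave 247 of 14588 with the block, 14 of 14836 with pairs 2 and 3 and the block, and 1 with DESeq2. The other alternatives, and all of those in the ratio, called no gene. Signs were unstable: of the 38 genes outside the 5 lowest in p, 33 changed sign in total RNA in some setting, 25 in ribosome-associated RNA and 33 in the ratio. With pairs 2 and 3 alone and the replicate block, the log2 fold change of Dynll1 in total RNA was -0.00298, and the ratio changes of Kif3b, Dynll1 and Kif13b were -0.00698, 0.0907 and -0.0575, opposite in sign to those with all libraries; the cause was not tested. Between fractions in controls, where 3 genes were higher and 10 lower, the counts were 8 and 19 with the replicate block, 8 and 18 with pairs 2 and 3 and the block, 5 higher with DESeq2, and 5 lower in 1 fit of all 12 libraries. Leaving out 1 library gave 2 to 6 higher and 4 to 11 lower, with 4 lower without total control replicate 1, 5 lower without total control replicate 2 and 6 higher without ribosome-associated control replicate 3. In HTT-deleted cells, where 0 were called, DESeq2 and the fit of all 12 libraries each gave 1 higher and 4 lower, pairs 2 and 3 with the block 9 and 21, and leaving out 1 library 0 to 4 higher and 0 to 11 lower, both highest without total HTT-deleted replicate 1. The block changed no other count of calls among the 43. Over all genes the controls gave 3745 calls of 14990, 7524 with the block, 7445 of 15147 with pairs 2 and 3 and the block, 4317 with DESeq2, 1646 in the fit of all 12 libraries and 1507 to 3251 with 1 library left out. In HTT-deleted cells 131 of 14627 genes were called, 866 with DESeq2 and 1135 of 15574 in the fit of all 12 libraries. Pairs 2 and 3 with the block gave 8333 of 14981, and leaving out 1 library gave 0 to 3008. Depth limits Bicd1 and Kif5a most, the members with the lowest counts.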
